A study of Homo sapiens with 12 samples.

Results

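The genes described here encode the proteins of the mitochondrial ribosome that carry an MRPL or MRPS symbol. They were chosen by name: every gene with the biotype protein coding whose symbol was MRPL or MRPS followed by a number and at most 1 further letter. The rule took 78 of the 58735 genes in the table, 49 of them MRPL genes (named for the large subunit) and 29 MRPS genes (named for the small subunit). It used no measured value. All 78 passed the filter on low counts, which left 16702 genes for testing, so no member was lost to low expression.

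RNA was sequenced from Beas-2b cells, a line of bronchial epithelial origin, after selection of polyadenylated mRNA. There were 12 libraries in 4 groups, with 3 biological replicates each. Wild-type cells were kept in control medium or given bleomycin, a DNA-damaging drug used here to induce senescence, at the labelled concentration of 10 mg/ml for 2 days. ANT1 knockout cells, made with CRISPR against SLC25A4, which encodes the ADP/ATP carrier ANT1 of the inner mitochondrial membrane, were kept or treated in the same way. All 12 libraries were thus Beas-2b, and no other agent or allele was labelled. The knockout cells were described as clones, the number of clones was not given, and genotype and clone cannot be told apart. The series was titled as a study of ANT1 in pulmonary fibrosis.

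Mitochondria keep a ribosome of their own, which makes the few proteins encoded by mitochondrial DNA, all of them membrane subunits of the respiratory chain and of ATP synthase. Its ribosomal RNAs are transcribed inside the organelle, whereas every one of its proteins is encoded in the nucleus, made in the cytosol and imported. Some of these proteins descend from bacterial ribosomal proteins, and others are found only in mitochondria. The ribosome is assembled with the help of GTPases, helicases, methyltransferases and other factors, and works with translation factors and aminoacyl-tRNA synthetases that are also imported.

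The genes do not sit together in the genome: they lay on 21 chromosomes. RefSeq start-site windows of GRCh38.p14, from 250 bases before to 50 bases after each start, were matched by symbol for 69 of the 78 genes and searched on both strands for 4 motifs. CCGGAAG, a core bound by ETS-family factors such as GABPA, lay in 29 of the 69 windows (42.0%), against 18.6% of the 10624 windows of protein-coding genes tested and 10.7% of all 27305 windows. AAGATGGCG, the core of the YY1 motif, lay in 13 (18.8%), against 3.79% and 1.85%. GCGCNTGCG, a form of the NRF1 motif, lay in 11 (15.9%, against 14.3% and 8.05%), and the E-box CACGTG in 6 (8.70%, against 9.90% and 7.44%). No match to the ETS core overlapped a match to the YY1 motif, and 4 genes held both.

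Of the 13 windows with the YY1 core, 10 are shown because the match had nearly the same place in them: on the gene's strand, with its first base between positions 7 and 36 counted from 1 at the start of transcription. The ATG inside the match was the annotated start codon in 9 of these genes, all but MRPL42. In the other 3 genes, MRPL32, MRPL36 and MRPL52, the match lay before the start. Each line gives 30 bases, 5′ to 3′ on the gene's strand, with the match in capitals.
MRPL22 (chr5:154941093-154941122, plus strand): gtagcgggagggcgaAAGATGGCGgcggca
MRPL38 (chr17:75904859-75904888, minus strand): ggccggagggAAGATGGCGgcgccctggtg
MRPL42 (chr12:93467512-93467541, plus strand): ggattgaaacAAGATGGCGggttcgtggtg
MRPL46 (chr15:88467361-88467390, minus strand): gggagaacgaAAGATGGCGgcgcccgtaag
MRPL50 (chr9:101398576-101398605, minus strand): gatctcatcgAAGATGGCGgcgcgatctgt
MRPS10 (chr6:42217833-42217862, minus strand): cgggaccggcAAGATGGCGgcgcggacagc
MRPS18A (chr6:43687763-43687792, minus strand): taggtttttgAAGATGGCGgccctcaaggc
MRPS18B (chr6:30617853-30617882, plus strand): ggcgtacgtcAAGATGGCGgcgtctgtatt
MRPS24 (chr7:43869479-43869508, minus strand): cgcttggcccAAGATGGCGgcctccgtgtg
MRPS30 (chr5:44808950-44808979, plus strand): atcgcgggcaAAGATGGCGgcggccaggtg

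The ETS core occurred 39 times in 29 windows, at a median position of -22, and 27 of the matches began within the 100 bases before the start. It is shown for 10 of the 29 genes as examples of its place and strand, again as 30 bases on the gene's strand with the match in capitals. CTTCCGG is the core read on the opposite strand. The match shown began at position -222 in MRPS18C and at position 1 in MRPS33.
MRPL16 (chr11:59810766-59810795, minus strand): agtgaacacaaCTTCCGGccccactgagcg
MRPL27 (chr17:50373218-50373247, minus strand): ccacgcagggcCCGGAAGtagatctcctga
MRPL43 (chr10:100987497-100987526, minus strand): tcgtcccggaaCCGGAAGcctcgaggttta
MRPL48 (chr11:73787800-73787829, plus strand): aatttcagaagCTTCCGGaactaaaatgat
MRPL54 (chr19:3762650-3762679, plus strand): gccactgacgtCTTCCGGaaacgtgcactt
MRPS18A (chr6:43687804-43687833, minus strand): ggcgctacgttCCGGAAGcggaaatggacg
MRPS18C (chr4:83455825-83455854, plus strand): gggctcgcggaCCGGAAGcacgcataaact
MRPS31 (chr13:40771204-40771233, minus strand): aaggcgccaggCCGGAAGcggaagagaggg
MRPS33 (chr7:141014934-141014963, minus strand): agagggcgggcCTTCCGGgacgagggcgcg
MRPS34 (chr16:1773187-1773216, minus strand): cctcttcctcgCTTCCGGccgcgaccgaac
MRPL49, which responded most to bleomycin, held neither core but an E-box.
MRPL49 (chr11:65121933-65121962, plus strand): cggctCACGTGgggaaggccaggcctccca

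Libraries held 15753944 to 21923695 counts, so that 3 counts, the limit that a count of 0 allows, came to 0.136 to 0.190 CPM (counts scaled to library totals after TMM normalization), while the lowest value of any member in any library was 43 counts or 2.46 CPM. SLC25A4 was at 16.1 CPM or more in every wild-type library and at 6.97 CPM or less in every knockout library, lower in the knockout by 3.42-fold in control medium (log2 -1.78, SE 0.21, adjusted p = 0.0111, edgeR's quasi-likelihood test with Benjamini-Hochberg adjustment over all genes tested, as for every adjusted p here) and by 4.78-fold under bleomycin (adjusted p = 0.000904). Keratins of the epithelial marker list were high, whereas EPCAM (mean 0.531 FPKM, the authors' level per gene length and library size) and CDH1 (0.250 FPKM) were close to the floor, and KRT5 and KRT14 did not pass the filter. Summed fibroblast markers ranged from 693 to 3660 CPM with the maximum in knockout control replicate 2, and were at 925 to 1559 CPM in wild-type controls against 770 to 802 CPM under bleomycin. Singly, of the 4 tested, 1 rose and 2 fell in wild-type cells, and 0 rose and 2 fell in knockout cells. Summed leukocyte markers, of which 2 of 7 passed the filter, separated the treatments in both genotypes, at 19.5 to 23.9 CPM in wild-type and 29.8 to 41.0 CPM in knockout controls against 7.59 to 8.44 CPM and 7.11 to 11.4 CPM under bleomycin. The 2 that passed went opposite ways under bleomycin. CD14 changed by -3.29 and ITGAM by 9.63 in wild-type cells (log2), and by -3.19 and 6.70 in knockout cells. Endothelial markers ranged from 2.34 to 4.23 CPM. The part of these markers in the results was not tested. In such bulk libraries, fewer cells of a type and less RNA per cell cannot be told apart.

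Knockout control replicate 2 stood apart from the other libraries. Transcripts of the mitochondrial chromosome made up 0.364% of its counts and 3.86% to 5.13% of those of the other 11. For the ribosomal protein genes it was the most extreme library in both directions: it had the highest CPM of the 12 for 26 of the 78 genes and the lowest for another 26. In it, 22 genes lay at least 1.5-fold from the mean of the other two knockout controls, 12 of them below and 10 above, from -2.20 on the log2 scale in MRPS36 to 1.34 in MRPL38. In each of the 9 libraries of the other groups the same measure gave 0 or 1 gene. The median over the 78 genes was 0.01. For the genes named in the bleomycin results, the result without this library is given where that ends a call or moves a called change by over 1.5 times. Calls added by leaving it out are given for some genes only. Among the others, MRPL1, MRPL19, MRPL32 and MRPS33 then also passed in wild-type cells (-0.44, -0.29, 0.41 and 0.58 on the log2 scale with all libraries). In knockout cells MRPS27 and MRPS6 did (-0.28 and 0.30 with all libraries).

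Per annotated gene length, the genes were expressed well above the middle of the transcriptome. Their median level was 15.6 FPKM, against 3.82 over all genes tested, and 70 of 78 lay above the latter. Levels spanned 79.2-fold from the lowest to the highest gene, and 46 genes lay between 10 and 60 FPKM. The gene lengths of the deposited table, by which FPKM are scaled, were short, at a median of 2539 bases against 4464. They belong to the annotated gene and need not be those of the transcripts expressed.

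The 5 highest genes were MRPS34 at 76.2 ± 29.9 FPKM (SD over the 12 libraries), MRPL14 at 66.7 ± 7.37, MRPL41 at 55.3 ± 10.7, MRPL51 at 55.1 ± 9.99 and MRPL37 at 53.8 ± 5.42. MRPL14 is the counterpart of a bacterial protein, and the other 4 are found only in mitochondria. MRPS34 ranged from 57.0 FPKM to 166.7 FPKM, the latter in knockout control replicate 2, and did not differ from MRPL14 beyond that spread. MRPL14 lay above MRPL41 by slightly more than either SD, and MRPL41, MRPL51 and MRPL37 did not differ beyond theirs. These SDs mix the 4 groups and include knockout control replicate 2 (MRPL41 at 82.8 FPKM there). The levels were not compared library by library. The 5 lowest were MRPS18C at 3.17 ± 0.907 FPKM, MRPL53 at 3.00 ± 0.642, MRPS17 at 2.60 ± 0.234, MRPL46 at 1.00 ± 0.204 and MRPL38 at 0.962 ± 0.384. MRPL46 and MRPL38, both mitochondria-specific proteins of the large subunit, did not differ beyond their spread and lay below MRPS17 by more than theirs, whereas MRPS18C, MRPL53 and MRPS17 overlapped.

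**Figure D1:**
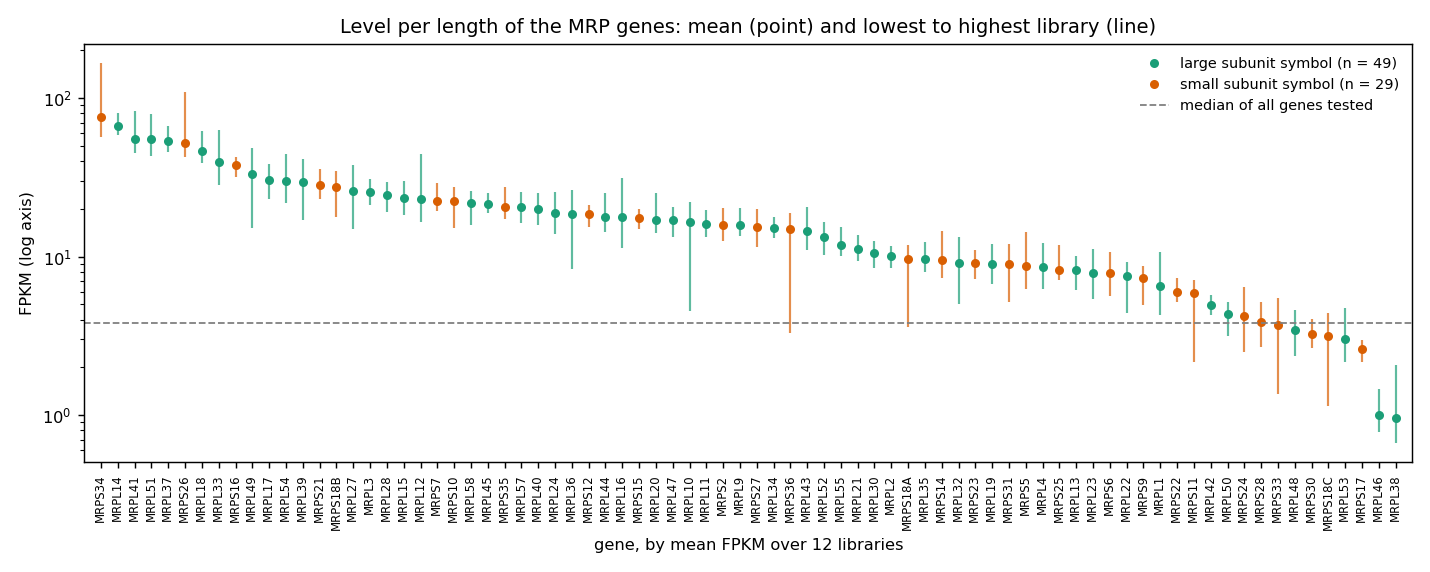
Mean FPKM of each of the 78 genes over the 12 libraries (log axis), ranked, with lines from the lowest to the highest library, MRPL genes in green and MRPS genes in orange. Levels run from 76.2 FPKM in MRPS34 to 0.962 FPKM in MRPL38, and most genes lie above the dashed line at 3.82 FPKM, the median of all genes tested.

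In wild-type cells, bleomycin changed 20 of the 78 genes (25.6%), 12 upward and 8 downward, at an adjusted p under 0.05. Of all genes tested 43.5% passed in this comparison, 23.9% higher and 19.6% lower, so the share among the ribosomal protein genes was below the background. The median change of the 78 was 0.02 on the log2 scale, as it was over all genes (0.02), and the range was -0.68 to 1.05. Only MRPL49 passed with at least 2-fold, against 18.3% of all genes. At an unadjusted p under 0.05, 31 genes passed, against 50.5% of all genes. In 37 genes the groups did not overlap, where 61.3% of all genes did not. Fitted on the wild-type groups alone, 27 genes rose and 14 fell (background 56%). Without knockout control replicate 2, which belongs to neither group but shares the filter, the scaling and the estimate of spread, 26 genes rose and 15 fell (background 56.6%), including all 20 of the former. The number that rose was 6 without wild-type control replicate 2, without wild-type control replicate 3 or without wild-type bleomycin replicate 3, and 12 of the 20 passed whichever single library was left out. Over all genes, 3500 of 17188, 3484 of 17194 and 3614 of 17154 rose in those fits.

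MRPL49 (ENSG00000149792, chr11:65122183-65127371), a mitochondria-specific protein of the large subunit, rose most. It was at 73.5, 67.9 and 66.4 CPM in the 3 wild-type controls and at 137.9, 145.7 and 146.3 CPM under bleomycin. The groups lay far apart, with both sets of replicates close together. The change was 1.05 on the log2 scale (SE 0.13, 2.07-fold, adjusted p = 1.99e-05). FAU, a ribosomal protein gene of the cytosol with more counts, overlaps it on the opposite strand and rose by 0.39 (adjusted p = 0.0477), and the sources used here do not say whether counting used strand.

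MRPL39 (ENSG00000154719, chr21:25585656-25607517), another mitochondria-specific protein of the large subunit, had 28.0, 26.7 and 23.0 CPM in control medium and 46.4, 45.9 and 48.7 CPM under bleomycin. All treated libraries lay above all controls, by 0.86 (SE 0.12, 1.81-fold, adjusted p = 9.11e-05). MRPS24 (ENSG00000062582, chr7:43866558-43869893), the counterpart of bacterial S3 at the mRNA entry of the small subunit, had 7.33, 9.13 and 10.4 CPM in control medium and 15.8, 16.9 and 16.1 CPM under bleomycin. The treated libraries were nearly equal and again above all controls, by 0.87 (SE 0.15, 1.82-fold, adjusted p = 0.000345). It held the YY1 core at its start codon.

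Among the genes that passed, the 3 with the next largest rises did so by about 1.4-fold to 1.5-fold. MRPS33 (log2 0.58), MRPL36 (0.49) and MRPL10 (0.48) changed by more than the last of these but did not pass. MRPL24 (chr1:156737303-156741590), the counterpart of bacterial L24, an early-binding protein of the large subunit, went from 25.9 ± 3.69 to 38.5 ± 4.56 CPM (SD, n = 3), with every treated library above every control (log2 0.57, SE 0.13, adjusted p = 0.00301). MRPS31 (chr13:40729135-40771173), a mitochondria-specific protein of the small subunit, went from 15.9 ± 0.73 to 23.4 ± 1.90 CPM (log2 0.55, SE 0.16, adjusted p = 0.0108). MRPS6 (chr21:34073224-34143034), the counterpart of bacterial S6, went from 26.7 ± 2.59 to 37.0 ± 3.32 CPM (log2 0.47, SE 0.12, adjusted p = 0.0067). SLC5A3 shares the strand and the locus of MRPS6, had more counts and rose by 0.28 (adjusted p = 0.0235).

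Of the 8 genes that fell, MRPL4 and MRPL16 fell most. MRPL4 (ENSG00000105364, chr19:10251901-10260045), the counterpart of bacterial L4, which lines the exit tunnel, had 49.8, 44.2 and 40.3 CPM in control medium and 29.4, 25.8 and 28.9 CPM under bleomycin. The lowest control was well above the highest treated library, and the change was -0.68 (SE 0.13, 1.60-fold lower, adjusted p = 0.000893). MRPL16 (ENSG00000166902, chr11:59806135-59810872), the counterpart of bacterial L16 near the peptidyl transferase centre, had 50.01, 46.2 and 45.8 CPM in control medium and 29.8, 26.3 and 33.2 CPM under bleomycin. Its groups were as clearly separate, with a change of -0.67 (SE 0.15, 1.59-fold lower, adjusted p = 0.0025).

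MRPL54, a mitochondria-specific protein of the large subunit, fell from 37.0 ± 6.30 to 24.4 ± 2.35 CPM (SD, n = 3, log2 -0.60, adjusted p = 0.00138). MRPL43, also mitochondria-specific, fell from 63.6 ± 8.58 to 43.1 ± 3.39 CPM (log2 -0.56, adjusted p = 0.00118). MRPS5, the counterpart of bacterial S5 at the mRNA entry, fell from 64.6 ± 3.65 to 44.6 ± 2.41 CPM (log2 -0.54, adjusted p = 0.00366). All of these genes had every treated library below every control. MRPS27, a pentatricopeptide repeat protein of the small subunit, fell from 121.8 ± 7.18 to 82.2 ± 5.20 CPM (log2 -0.57, SE 0.13, adjusted p = 0.00383), while PTCD2, which overlaps it on the opposite strand, rose by 0.43 (adjusted p = 0.0067). The remaining genes that passed were MRPL17, MRPL52, MRPL57, MRPS18B and MRPS21, which rose, MRPL27, which rose by 0.39 at an adjusted p of 0.0489, and MRPL48 (log2 -0.51, adjusted p = 0.0115) and MRPS14, which fell. Without wild-type bleomycin replicate 3, the changes were 0.23 in MRPL52 (0.35 with it) and 0.18 in MRPL57 (0.31 with it), and neither passed.

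In knockout cells, bleomycin changed 28 of the 78 genes (35.9%), 15 upward and 13 downward. The background in this comparison was 43.2%, with 22.5% higher and 20.7% lower. The median over the 78 genes was 0.02, the range -0.82 to 1.19, and 1 gene (MRPL49) passed with at least 2-fold, against 17.1% of all genes. At an unadjusted p under 0.05, 35 genes passed, against 51% of all genes. The groups did not overlap in 35 genes, against 51.3% of all genes. Fitted on the knockout groups alone, 7 genes rose and 6 fell (background 31.9%). Without knockout control replicate 2, 21 genes rose and 15 fell (background 48.4%). Of the 28 genes, 24 still passed without it, and MRPL30, MRPL44, MRPS12 and MRPS35 did not. Without knockout bleomycin replicate 2 the number that rose was 8, without knockout bleomycin replicate 1 or 3 the number that fell was 6, and 12 of the 28 passed whichever library was left out. Over all genes, 3189 of 17152 rose in the first of those fits, and 2906 of 17221 and 2725 of 17191 fell in the others.

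MRPL49 again rose most. It was at 69.6, 46.8 and 64.98 CPM in the knockout controls and at 130.1, 151.0 and 132.8 CPM under bleomycin. Knockout control replicate 2 had the lowest of these values, and the groups did not overlap. The change was 1.19 (SE 0.13, 2.28-fold, adjusted p = 8.29e-06) and 1.03 without that library. FAU was 0.23 higher in these cells (adjusted p = 0.236). MRPL39 had 27.3, 20.5 and 26.6 CPM in control medium and 44.0, 50.2 and 42.0 CPM under bleomycin, again with no overlap (log2 0.87, SE 0.12, adjusted p = 9.88e-05).

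Among the genes that passed, the other 4 with the largest rises all had their lowest value in knockout control replicate 2. MRPL10, described below, changed by 0.79 but did not pass. MRPS33, a mitochondria-specific protein of the small subunit, had 16.3, 7.22 and 15.2 CPM in control medium and 23.0, 29.2 and 23.9 CPM under bleomycin. Even its highest control lay below all treated libraries, and the change was 0.97 (SE 0.23, adjusted p = 0.00399) with the library and 0.68 (adjusted p = 9.96e-05) without it. MRPS18C, a protein related to bacterial S18, rose by 0.76 (SE 0.27, adjusted p = 0.0356), by 0.45 without that library (adjusted p = 0.0257), and did not pass without knockout bleomycin replicate 2 (adjusted p = 0.128) or 3 (adjusted p = 0.0667). MRPL27, the counterpart of bacterial L27 at the peptidyl transferase centre, went from 60.1 ± 13.0 to 99.1 ± 13.5 CPM (SD, n = 3, log2 0.72, SE 0.15, adjusted p = 0.00168, 0.55 without that library). MRPL32, whose bacterial counterpart is L32, went from 25.01 ± 6.89 to 39.7 ± 7.20 CPM (log2 0.67, SE 0.18, adjusted p = 0.0105). Its change was 0.47 without knockout control replicate 2, and the adjusted p was 0.0610 without knockout bleomycin replicate 2.

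MRPL1, the counterpart of the L1 protein of the stalk where deacylated tRNA leaves, fell most. It had 17.2, 20.8 and 14.2 CPM in the knockout controls and 9.20, 11.8 and 8.43 CPM under bleomycin. The groups were separate, with the highest control in replicate 2, and the change was -0.82 (SE 0.17, 1.77-fold lower, adjusted p = 0.00202), or -0.67 without that replicate. MRPL16 had 46.9, 70.9 and 47.2 CPM in control medium and 32.2, 31.3 and 30.3 CPM under bleomycin, and fell by 0.81 (SE 0.15, adjusted p = 0.000703) or by 0.59 without knockout control replicate 2. MRPS5 had 69.8, 96.9 and 67.2 CPM in control medium and 50.02, 46.3 and 47.4 CPM under bleomycin, and fell by 0.70 (SE 0.13, adjusted p = 0.000606) or by 0.52 without it. In both genes replicate 2 was the highest control by far, and the other two controls were also above all treated libraries.

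The same library was high for MRPL12 and MRPS34. MRPL12, the counterpart of the bacterial L7/L12 protein of the stalk that contacts translation factors, had 25.9, 45.8 and 22.5 CPM in control medium and 18.7, 17.1 and 17.7 CPM under bleomycin. It fell by 0.82 (SE 0.21, adjusted p = 0.00785) with knockout control replicate 2 and by 0.45 (adjusted p = 0.00359) without it. MRPS34 had 88.0, 183.5 and 82.4 CPM in control medium and 68.8, 68.6 and 69.5 CPM under bleomycin. Its treated libraries were almost equal and all its controls higher, by very unequal amounts: the change was -0.77 (SE 0.24, adjusted p = 0.0209) with that library, -0.31 (adjusted p = 0.00981) without it, and the adjusted p was 0.0520 to 0.0556 when any of the knockout bleomycin libraries was left out. MRPL19, the counterpart of bacterial L19, fell from 50.9 ± 4.10 to 34.4 ± 2.75 CPM (SD, n = 3, log2 -0.56, SE 0.12, adjusted p = 0.00162).

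The remaining rises past the test were those of MRPL18, MRPL24, MRPL30, MRPL36, MRPL57, MRPS12, MRPS18B, MRPS24 and MRPS31, and the remaining falls those of MRPL4, MRPL43, MRPL44, MRPL48, MRPL54, MRPS14 and MRPS35. MRPL44, an RNase III-like protein of the large subunit, passed although its groups overlapped. Without knockout control replicate 2 the change was 0.38 in MRPL36 (0.64 with it) and -0.32 in MRPS14 (-0.49 with it), and neither lost its call. It was -0.27 in MRPL44 (-0.40 with it) and -0.20 in MRPS35 (-0.31 with it), which both did. MRPL18 changed by 0.18 without knockout bleomycin replicate 2 and by 0.33 with it, and did not pass in the former case (adjusted p = 0.207). MRPL4 went from 39.2 ± 6.47 to 29.1 ± 2.18 CPM (SD, n = 3, log2 -0.43, SE 0.13, adjusted p = 0.0175) and did not pass without replicate 1 of the controls (adjusted p = 0.0716) or of the treated cells (adjusted p = 0.0726). MRPS31 went from 15.5 ± 3.89 to 22.1 ± 1.05 CPM (log2 0.51, SE 0.16, adjusted p = 0.0189). Its change was 0.31 without knockout control replicate 2 (adjusted p = 0.0175) and 0.47 without knockout bleomycin replicate 2 (adjusted p = 0.0656).

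Both genotypes shared 15 calls in the same direction and none in opposite directions. MRPL24, MRPL27, MRPL39, MRPL49, MRPL57, MRPS18B, MRPS24 and MRPS31 rose in both, and MRPL4, MRPL16, MRPL43, MRPL48, MRPL54, MRPS5 and MRPS14 fell in both. Some of these calls were fragile. Of the 21 alternative fits described below, 14 ended the call of MRPL27 in wild-type cells and 10 that of MRPL43 in knockout cells. The wild-type call of MRPL57 ended without any of the 3 wild-type controls (adjusted p = 0.0673, 0.0828 and 0.190). Others of the 15 also lost a call in single fits. The shared calls were 75% of the wild-type calls and 53.6% of the knockout calls, where the shares over all genes were 78.6% and 79.0%, and 34.2% of all genes were called the same way in both. A further 5 genes passed in wild-type cells alone, 13 in knockout cells alone and 45 in neither. The 2 comparisons share no library. Over the 78 genes, the log2 changes had the same sign in 64 and correlated with Pearson's r = 0.85 and Spearman's rho = 0.85, and over all 16702 genes r was 0.92, which describes these genes and carries no test.

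**Figure D2:**
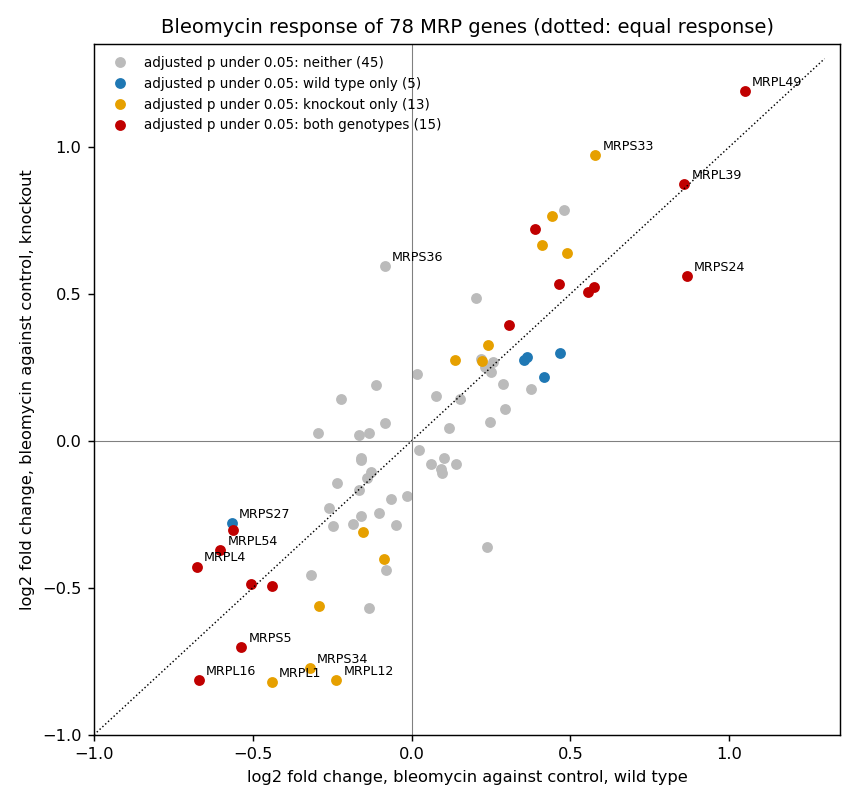
Log2 change under bleomycin of the 78 genes in wild-type cells (horizontal) and knockout cells (vertical), with red for the 15 genes past the test in both, blue for the 5 in wild-type cells alone, amber for the 13 in knockout cells alone and grey for the 45 in neither. MRPL49 lies at the upper right at 1.05 and 1.19, and the points follow the dotted line of equal change, with MRPL1, MRPL16 and MRPL4 at the lower left.

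A call in a single genotype did not show that the genotypes differed. The interaction, the knockout response less the wild-type response, passed in 0 of the 78 genes at an adjusted p under 0.05 and in 0 of all 16702 genes (a background of 0%). At an unadjusted p under 0.05 it passed in 0 of the 78 genes by edgeR, where 4.61% of all genes did, and DESeq2's Wald test called 0 of them at an adjusted p under 0.05. With knockout control replicate 2 left out, 0 of the 78 passed at an adjusted p under 0.05, against 0.0523% of all genes. The largest differences were 0.68 (SE 0.54) in MRPS36 and -0.60 (SE 0.29) in MRPL46, each with an adjusted p of 0.899. Without that library they were 0.25 in MRPS36 and -0.40 in MRPL46. The 95% interval of the difference lay within 2-fold in 67 of the 78 genes and reached beyond it in the others.

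**Figure D3:**
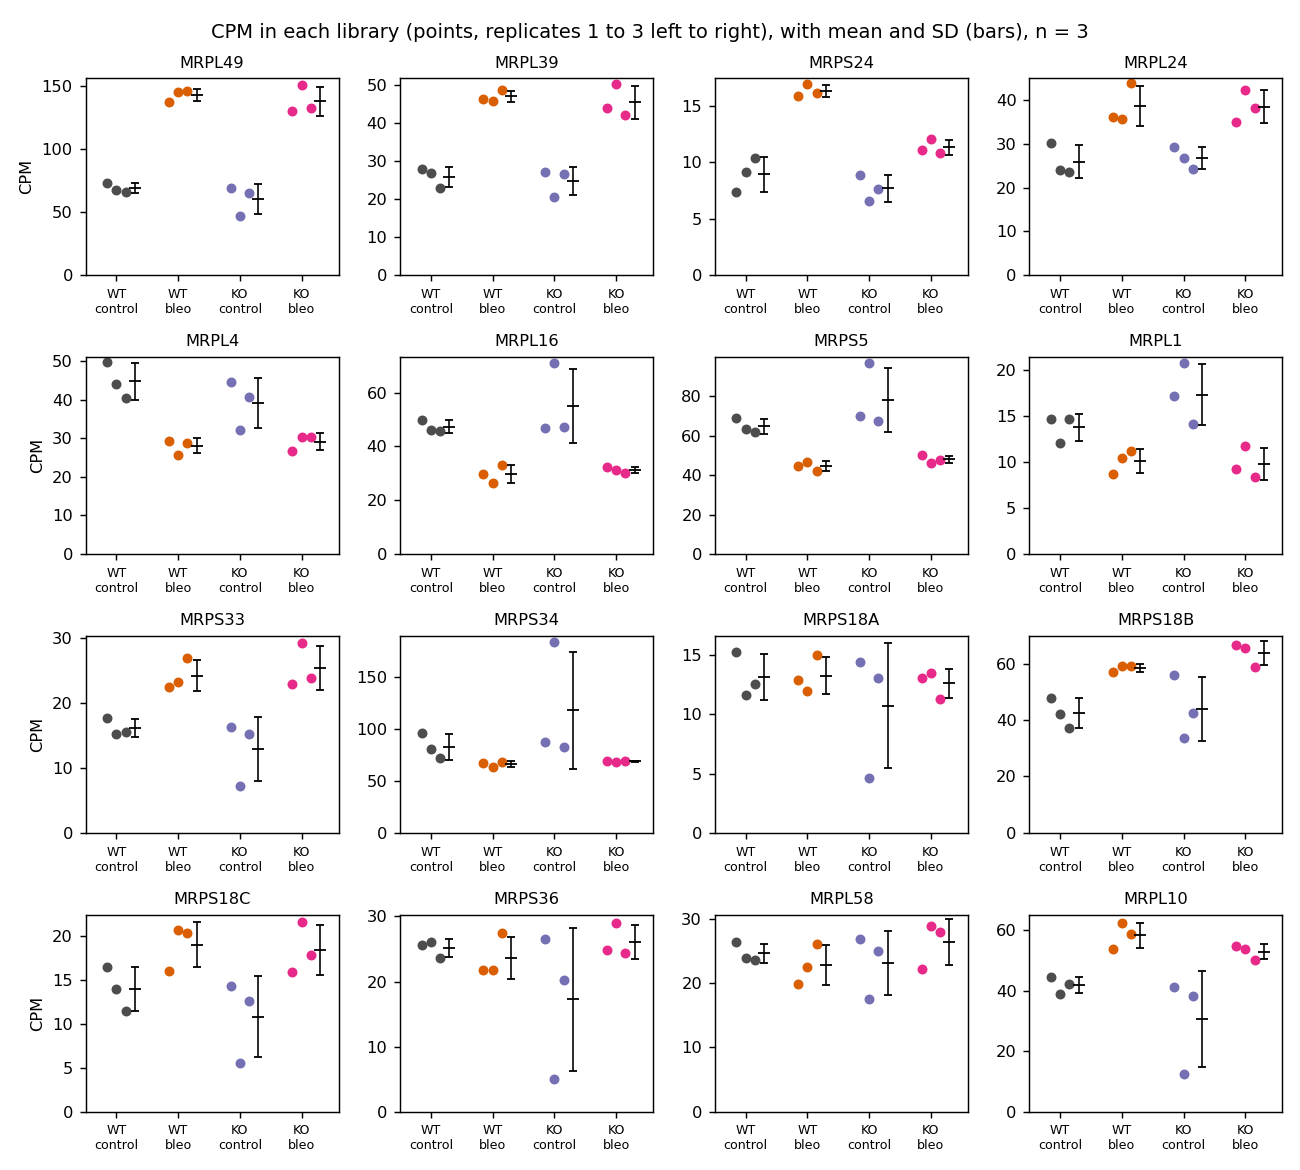
CPM in each library for 16 genes, with points for replicates 1 to 3 and bars for the mean ± SD (n = 3) of each group, where bleo stands for bleomycin. MRPL49, MRPL39 and MRPS24 are high in both bleomycin groups, MRPL4 and MRPL16 are low in both, and knockout control replicate 2 stands away from its group in MRPS33, MRPS34, MRPS36, MRPS18A and MRPL10.

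MRPL10 is the gene nearest to the threshold and was picked after its values were seen. This counterpart of bacterial L10, which anchors the stalk, was at 44.4, 39.0 and 42.2 CPM in wild-type controls and at 53.8, 62.3 and 58.7 CPM under bleomycin. In the knockout it was at 41.2, 12.5 and 38.1 CPM in control medium and at 54.7, 53.8 and 50.2 CPM under bleomycin. No groups overlapped in either genotype, and control replicate 2 of the knockout lay far below all other libraries. The changes were 0.48 (SE 0.30, adjusted p = 0.215) and 0.79 (SE 0.30, adjusted p = 0.05002, just above the threshold). Without that replicate MRPL10 passed in both genotypes, with 0.47 (adjusted p = 2.08e-05) and 0.41 (adjusted p = 0.00058).

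Knockout and wild-type cells in control medium differed in 0 of the 78 genes at an adjusted p under 0.05, against a background of 0.168%. DESeq2's Wald test also called 0, and without knockout control replicate 2 the count was 0 against a background of 1.02%. At an unadjusted p under 0.05, edgeR gave 3 genes, where 9.94% of all genes passed: MRPS5 (log2 0.27, adjusted p = 0.502), MRPS6 (0.28, adjusted p = 0.488) and MRPL55 (0.26, adjusted p = 0.4996). When knockout control replicate 2 was left out, these differences were 0.09, 0.29 and 0.17. The median over the 78 genes was 0.04 and the range -0.54 to 0.51. Both ends of that range belonged to genes in which knockout control replicate 2 was extreme: MRPS36 at -0.54 (SE 0.38, adjusted p = 0.604) was at -0.11 without it, and MRPS34 at 0.51 (SE 0.24, adjusted p = 0.509) was at 0.04 without it. Only MRPL11, a stalk-base protein, and MRPS6 had groups that did not overlap, against 12.2% of all genes. The 95% interval lay within 2-fold in 73 genes and within 1.5-fold in 57.

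Under bleomycin the genotypes likewise differed in 0 of the 78 genes, against a background of 0.0479%, with 0 by DESeq2's Wald test and 1 at an unadjusted p under 0.05 (6.6% of all genes). That gene was MRPS24. Its 3 bleomycin libraries were at 15.8, 16.9 and 16.1 CPM in wild-type cells and at 11.1, 12.1 and 10.8 CPM in knockout cells. All knockout values were lower, by 0.52 on the log2 scale on average (log2 -0.52, SE 0.15, 95% interval -0.84 to -0.21, adjusted p = 0.388). In the fit that left out knockout control replicate 2, or in a fit of the treated groups alone (background 1.94%), MRPS24 passed (adjusted p = 0.0309 in the former, where the background was 1.71%). In control medium MRPS24 was at 8.94 ± 1.53 CPM in wild-type cells and 7.69 ± 1.18 CPM in knockout cells (SD, n = 3), and its response to bleomycin was 0.87 in the former and 0.56 in the latter, a difference of -0.31 (SE 0.21, adjusted p = 0.899). MRPL12, MRPL42, MRPS9 and MRPS34 were the other genes whose groups did not overlap, where 18.6% of all genes did not. The 95% interval lay within 2-fold in all 78 genes and within 1.5-fold in 66.

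Summed over the 78 genes, expression did not separate the groups. The sums were 3492, 3064 and 2932 CPM in wild-type controls, 3118, 3179 and 3526 CPM in wild-type cells under bleomycin, 3319, 3430 and 3049 CPM in knockout controls, and 3224, 3543 and 3201 CPM in knockout cells under bleomycin. Every group overlapped every other. Within 3 of the groups the highest library was also the highest for the summed 86 cytosolic ribosomal protein genes: wild-type control replicate 1 (46641 CPM), wild-type bleomycin replicate 3 (47958 CPM) and knockout bleomycin replicate 2 (49129 CPM). The part of that shared shift in the results was not tested.

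Genes of both symbols rose and fell. The division is by symbol, which need not match the subunit that holds the protein. The MRPS genes thus include MRPS18A and MRPS36, which are described separately. Whether the symbol matches the subunit was not checked for the others. Of the 49 MRPL genes, 7 rose and 5 fell in wild-type cells (median -0.06) and 9 rose and 9 fell in knockout cells (median -0.06). Of the 29 MRPS genes, 5 rose and 3 fell in wild-type cells (median 0.06) and 6 rose and 4 fell in knockout cells (median 0.14). By descent, the 48 genes with a bacterial counterpart gave 7 rises and 4 falls in wild-type cells and 10 and 7 in knockout cells, and the 29 mitochondria-specific genes gave 5 and 4, then 5 and 6. With knockout control replicate 2 left out, 18 MRPL genes rose and 11 fell in wild-type cells and 13 rose and 10 fell in knockout cells, and among the MRPS genes the counts were 8 and 4, then 8 and 5. Over all genes, 23.9% rose and 19.6% fell in wild-type cells and 22.5% and 20.7% in knockout cells. Without that library the shares over all genes were 29.8% and 26.8%, then 25.6% and 22.8%.

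The ratio of summed MRPL to summed MRPS CPM was 1.75, 1.68 and 1.74 in wild-type controls and 1.81, 1.83 and 1.89 under bleomycin. In knockout cells it was 1.70, 1.61 and 1.71 in control medium and 1.74, 1.88 and 1.80 under bleomycin. In both genotypes every treated library was thus above every control. With MRPL49 left out of the sum, the wild-type ratios were 1.70, 1.62 and 1.68 against 1.69, 1.70 and 1.77, and the knockout ratios 1.64, 1.58 and 1.65 against 1.63, 1.76 and 1.69. The groups then overlapped in both genotypes, narrowly in wild-type cells (1.696 in control replicate 1 against 1.690 in bleomycin replicate 1). MRPL49, the gene that rose most, was the only gene left out in this way.

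**Figure D4:**
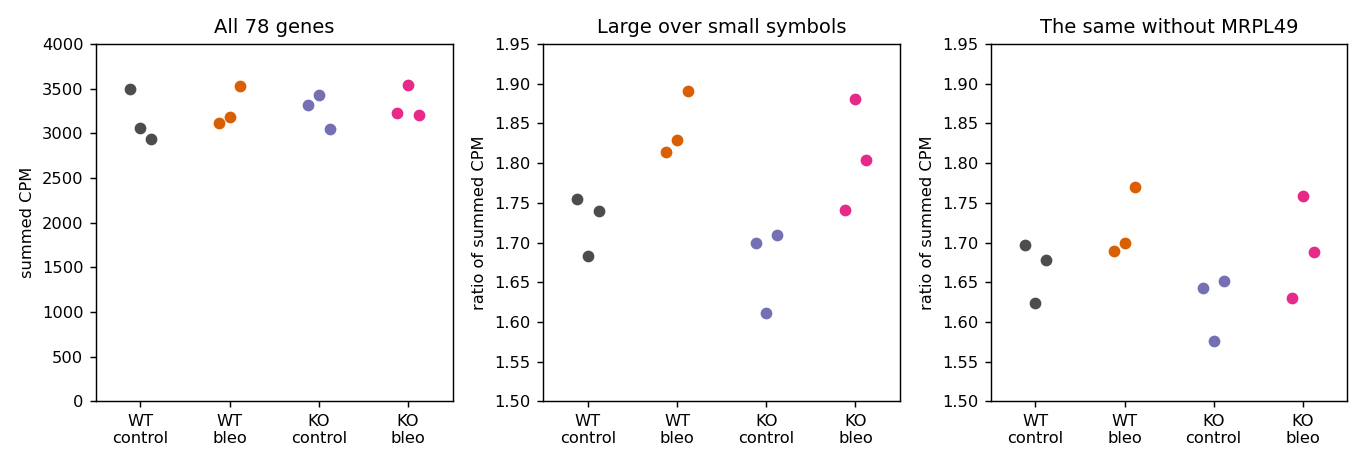
Per library (1 point each), the summed CPM of the 78 genes (left, axis from 0), the ratio of MRPL to MRPS sums (middle) and the same ratio without MRPL49 (right, both ratio axes from 1.5). The sums of all groups overlap between 2932 and 3543 CPM, and the ratios separate treated from control libraries with MRPL49 included and overlap without it.

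Mammals have 3 paralogs of bacterial S18, of which MRPS18A sits in the large subunit. MRPS18B had 47.8, 42.2 and 37.2 CPM in wild-type controls and 57.0, 59.2 and 59.3 CPM under bleomycin. The groups were separate, and it rose by 0.46 (SE 0.15, adjusted p = 0.0261), a call that ended without wild-type control replicate 2 or 3 or any wild-type bleomycin library (adjusted p of 0.0540 to 0.113). In knockout cells it had 56.0, 33.5 and 42.6 CPM against 66.7, 65.6 and 58.8 CPM and rose by 0.53 (SE 0.15, adjusted p = 0.0134, 0.37 without knockout control replicate 2).

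MRPS18C had 16.5, 14.0 and 11.5 CPM in wild-type controls and 16.1, 20.6 and 20.4 CPM under bleomycin, groups that overlapped (log2 0.44, SE 0.26, adjusted p = 0.196, or 0.0122 without knockout control replicate 2). Its knockout libraries were at 14.3, 5.60 and 12.6 CPM in control medium and 15.9, 21.5 and 17.8 CPM under bleomycin, where the rise given above was found. MRPS18A had 15.3, 11.6 and 12.5 CPM in wild-type controls and 12.9, 11.9 and 15.0 CPM under bleomycin, with a change of 0.02 (SE 0.29, adjusted p = 0.971). In knockout cells it had 14.4, 4.67 and 13.1 CPM in control medium and 13.0, 13.5 and 11.3 CPM under bleomycin (log2 0.23, adjusted p = 0.567, -0.13 without knockout control replicate 2). All 3 paralogs had their lowest knockout control value in replicate 2, and the difference in response between paralogs was not tested.

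MRPS36 and MRPL58 carry ribosomal names but have other known roles, MRPS36 as a subunit of the 2-oxoglutarate dehydrogenase complex and MRPL58 as a peptidyl-tRNA hydrolase that is also built into the large subunit. MRPS36 had 25.6, 26.2 and 23.6 CPM in wild-type controls and 21.8, 21.8 and 27.4 CPM under bleomycin (log2 -0.08, SE 0.38, adjusted p = 0.878). In knockout cells it had 26.5, 5.04 and 20.3 CPM against 24.8, 29.03 and 24.4 CPM (log2 0.59, SE 0.38, adjusted p = 0.232, 0.16 without control replicate 2). That replicate, at 5.04 CPM, lay far below the other 11 libraries. MRPL58 was at 24.6 ± 1.53 and 22.8 ± 3.16 CPM in wild-type cells and 23.1 ± 4.99 and 26.4 ± 3.598 CPM in knockout cells (SD, n = 3, adjusted p = 0.620 and 0.370).

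None of the 10 genes with the highest or lowest levels passed the test under bleomycin in wild-type cells, although MRPL14, MRPS34 and MRPS18C did without knockout control replicate 2 (adjusted p = 0.0135, 0.00256 and 0.0122). Among the highest, the changes in wild-type and knockout cells were -0.24 and -0.14 in MRPL14, 0.10 and -0.11 in MRPL37, 0.14 and -0.08 in MRPL41, and -0.25 and -0.29 in MRPL51. Among the lowest they were -0.13 and -0.57 in MRPL38, 0.24 and -0.36 in MRPL46, 0.06 and -0.08 in MRPS17, and -0.06 and -0.20 in MRPL53. In knockout cells, MRPS34 and MRPS18C were the only genes of both sets to pass, as given above. Without that library the knockout changes were -0.25 in MRPL14 (adjusted p = 0.0251), 0.01 in MRPL37, 0.24 in MRPL41, -0.09 in MRPL51, 0.004 in MRPL38, -0.17 in MRPL46, -0.14 in MRPS17 and 0.10 in MRPL53.

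Members with and without a motif in the start-site window both held rises and falls, except where few genes had the motif. Of the 29 with the ETS core, 4 rose and 4 fell in wild-type cells and 6 rose and 5 fell in knockout cells, and of the 40 without it 8 rose and 4 fell, then 9 and 8. Of the 13 with the YY1 core, 3 rose and 0 fell in wild-type cells (median 0.24) and 4 rose and 0 fell in knockout cells (median 0.23). Of the 56 without it, 9 rose and 8 fell in wild-type cells (median -0.08) and 11 rose and 13 fell in knockout cells (median -0.10). Of the 11 with the NRF1 motif, 2 rose and 0 fell in wild-type cells and 5 rose and 0 fell in knockout cells, and of the 6 with the E-box, 1 rose and 0 fell, then 3 and 0. When knockout control replicate 2 was left out, 7 rose and 1 fell of those with the YY1 core in wild-type cells and 5 rose and 0 fell in knockout cells. For the NRF1 motif the counts were then 6 and 2, then 5 and 2, and for the ETS core 9 and 5, then 8 and 5. For the E-box they were 3 and 1, then 3 and 0. In the same fit, of the 56 without the YY1 core, 14 rose and 13 fell in wild-type cells and 14 and 15 in knockout cells. Of the 40 without the ETS core, 12 rose and 9 fell, then 11 and 10. Over all genes, 23.9% rose and 19.6% fell in wild-type cells and 22.5% and 20.7% in knockout cells. Without that library the shares over all genes were 29.8% and 26.8%, then 25.6% and 22.8%. The counts by motif are descriptions and were not tested.

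The small subunit also holds 4 proteins whose genes have other symbols. DAP3, a GTP-binding protein of the subunit's head, rose in both genotypes. It was at 77.6, 73.2 and 68.1 CPM in wild-type controls and at 102.3, 101.1 and 113.2 CPM under bleomycin (log2 0.53, SE 0.10, adjusted p = 0.000547), and at 73.9, 85.8 and 71.2 CPM against 105.5, 114.7 and 103.7 CPM in knockout cells (log2 0.49, SE 0.10, adjusted p = 0.00116). No control overlapped a treated library. PTCD3, a pentatricopeptide repeat protein, changed by -0.23 (adjusted p = 0.103) and -0.22 (adjusted p = 0.124). In the fit that left out knockout control replicate 2, it passed in both genotypes, with -0.23 (adjusted p = 0.00618) and -0.34 (adjusted p = 0.00086). AURKAIP1 changed by -0.19 (adjusted p = 0.557) in wild-type cells and by -0.56 (adjusted p = 0.0776) in knockout cells, or -0.11 in the latter without control replicate 2. CHCHD1 likewise changed by -0.36 (adjusted p = 0.285, or 0.0224 without that library) and -0.62 (adjusted p = 0.0675), or -0.17. GADD45GIP1, a protein of the large subunit, was at 258.1 CPM in knockout control replicate 2 and at 91.8 and 81.2 CPM in the other two, and changed by -0.24 (adjusted p = 0.615) and -0.78 (adjusted p = 0.0903), or -0.06.

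Factors that build the mitochondrial ribosome moved in both directions, as its proteins did. Of 27 assembly and rRNA-processing genes tested, 6 rose and 6 fell in wild-type cells and 4 rose and 8 fell in knockout cells, and without knockout control replicate 2 the counts were 8 and 9, then 5 and 8. For this list and those that follow, the background is 43.5% of all genes in wild-type and 43.2% in knockout cells, or 56.6% and 48.4% without that library. YBEY, an endoribonuclease, rose by 0.73 (SE 0.15, adjusted p = 0.00125) and 0.81 (SE 0.15, adjusted p = 0.000791), and MPV17L2, which acts in ribosome assembly, rose by 0.57 (adjusted p = 0.00103) and 0.62 (adjusted p = 0.000673). DHX30, an RNA helicase, fell by 0.48 (adjusted p = 0.000295) and 0.40 (adjusted p = 0.00122). C1QBP, an RNA-binding chaperone of the matrix, fell by 0.55 (adjusted p = 0.000664) and 0.46 (adjusted p = 0.00268), wild type first in each case.

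Of 16 mitochondrial translation factors and their partners, 3 rose and 0 fell in wild-type cells, and 4 rose and 2 fell in knockout cells. With knockout control replicate 2 left out, the counts were 4 and 3, then 4 and 3, and the wild-type falls were those of TUFM, TSFM and LETM1. GUF1, an elongation factor of the LepA type, rose by 0.58 (SE 0.08, adjusted p = 9.12e-05) and 0.44 (adjusted p = 0.000893), and HEMK1, a methyltransferase of release factors, by 0.74 (adjusted p = 0.00083) and 0.58 (adjusted p = 0.00464). TSFM, the exchange factor of the elongation factor Tu, was 0.38 lower in wild-type cells (adjusted p = 0.184, or 0.00195 without that library) and fell by 0.73 in knockout cells (adjusted p = 0.0159), or by 0.34 without control replicate 2. LETM1, an inner membrane protein, fell in knockout cells by 0.41 (adjusted p = 0.021), or by 0.21 without that replicate.

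Of 22 genes that charge mitochondrial tRNAs, 2 rose and 1 fell in wild-type cells and 2 rose and 3 fell in knockout cells. When knockout control replicate 2 was left out, the counts were 3 and 5, then 2 and 4. AARS2, the mitochondrial alanyl-tRNA synthetase, rose by 1.08 (SE 0.17, adjusted p = 0.000192) and 0.72 (adjusted p = 0.00412). GARS, a glycyl-tRNA synthetase that serves cytosol and mitochondria, rose by 0.98 (SE 0.10, adjusted p = 3.48e-06) and 0.81 (adjusted p = 2.43e-05). CARS2, for cysteine, fell in wild-type cells by 0.50 (adjusted p = 0.000291) and was 0.14 lower in knockout cells (adjusted p = 0.177, or 0.0367 without that library). NARS2, for asparagine, fell by 0.70 (adjusted p = 0.00228) and LARS2, for leucine, by 0.45 (adjusted p = 0.00611) in knockout cells.

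Of 21 genes of mitochondrial transcription and RNA processing, 1 rose and 2 fell in wild-type cells and 2 rose and 6 fell in knockout cells. In the fit that left out knockout control replicate 2, the counts were 2 and 8, then 2 and 6. The helicase SUPV3L1 rose by 0.28 (adjusted p = 0.0388) and 0.30 (adjusted p = 0.0313), and MTERF1, a transcription terminator, rose in knockout cells by 0.37 (adjusted p = 0.0367). TBRG4, which stabilises mitochondrial mRNA, fell by 0.33 (adjusted p = 0.0228) and 0.45 (adjusted p = 0.00387). PNPT1, a polynucleotide phosphorylase, fell in wild-type cells by 0.35 (adjusted p = 0.0308), and GRSF1, an RNA-granule protein, in knockout cells by 0.52 (adjusted p = 0.0133), or by 0.27 without control replicate 2.

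Of 14 nuclear regulators of mitochondrial genes, 1 rose and 4 fell in wild-type cells and 1 rose and 5 fell in knockout cells. With knockout control replicate 2 left out, the counts were 3 and 4, then 2 and 6. ATF4, of the stress response, rose by 0.70 (adjusted p = 0.00017) and 0.50 (adjusted p = 0.00232). MYC fell by 1.01 (SE 0.12, adjusted p = 1.13e-05) and 0.71 (adjusted p = 0.000274). YY1 was at 200.5, 191.7 and 202.8 CPM in wild-type controls and at 135.9, 136.5 and 139.8 CPM under bleomycin, and at 186.0, 262.3 and 204.0 CPM against 142.8, 129.4 and 141.7 CPM in knockout cells. Its groups were separate in both genotypes, and it fell by 0.53 (adjusted p = 0.0017) and 0.66 (adjusted p = 0.000397).

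The ribosomal RNAs themselves were measured only as far as selection for poly(A) retains them. MT-RNR2, the RNA of the large subunit, was at 2302, 2171 and 2113 CPM in wild-type controls and at 4816, 5037 and 6504 CPM under bleomycin. Knockout cells had 2653, 1026 and 2327 CPM in control medium and 4074, 5960 and 5172 CPM under bleomycin. In both genotypes all treated libraries lay above all controls, and it rose by 1.31 (SE 0.28, 2.48-fold, adjusted p = 0.002) and 1.34 (SE 0.28, 2.53-fold, adjusted p = 0.0019, 1.02 without knockout control replicate 2). MT-RNR1, of the small subunit, had 297, 264 and 275 CPM against 370, 463 and 500 CPM in wild-type cells (log2 0.67, SE 0.53, adjusted p = 0.337, or 0.0475 without that library) and 410, 46.9 and 300 CPM against 363, 570 and 701 CPM in knockout cells (log2 1.11, SE 0.53, adjusted p = 0.115, or 0.61 with an adjusted p of 0.106 without it). Of the 13 mitochondrial mRNAs, edgeR called 0 in wild-type cells (also 0 at an unadjusted p under 0.05, median -0.11). When knockout control replicate 2 was left out, MT-CO1 and MT-ATP8 rose there (adjusted p = 0.00516 and 0.000547), and MT-CYB and MT-ATP6 fell (adjusted p = 0.00615 and 0.00209). In knockout cells 1, MT-ATP8, rose by 1.43 (adjusted p = 0.0195), or by 0.97 without control replicate 2, where MT-ND1 rose as well (adjusted p = 0.00389). Their median there was 0.57 with that library and 0.08 without it.

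**Figure D5:**
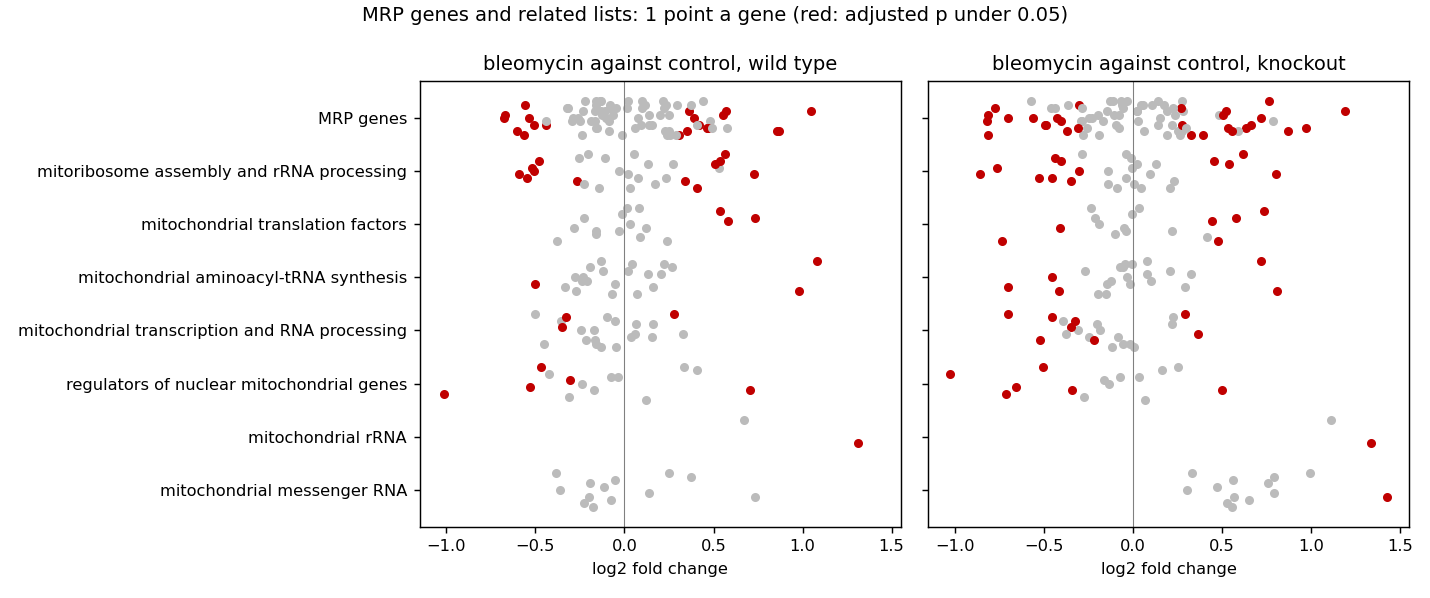
Log2 change under bleomycin of each gene tested, for the 78 ribosomal protein genes and 7 related lists, in wild-type and knockout cells, with genes at an adjusted p under 0.05 in red. Red points lie on both sides of 0 for the ribosomal protein genes and the assembly factors, and the 13 mitochondrial mRNAs are shifted to a median of 0.57 in knockout cells, where knockout control replicate 2 takes part.

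Reads of some members could not be assigned with certainty. Of the 78 genes, 49 overlap another annotated gene, 38 on the opposite strand and 23 on the same strand, and 12 overlap a gene with more counts, among them MRPL49 with FAU, MRPS6 with SLC5A3, MRPS14 with CACYBP and MRPL51 with NCAPD2. NCAPD2, a condensin subunit, fell by 1.38 (adjusted p = 3.65e-08) in wild-type cells and by 1.17 (adjusted p = 2.23e-07) in knockout cells, while MRPL51 did not pass in either. CACYBP and MRPS14 both fell in both genotypes, CACYBP by 0.53 and 0.72. The part of these neighbours in the values of the members was not tested.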

How the data were processed

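Gene counts of the 12 libraries were deposited by the authors with FPKM values; HISAT2 2.0.5 and featureCounts 1.5.0-p3 are named in the submitters' processing notes, and the genome build, annotation and strand setting are not given in the sources used here. The deposited FPKM equal each count divided by gene length and a library factor. They were used for levels per length and, as log2(FPKM + 1) or log2(FPKM + 0.1), in limma 3.58.1 as alternatives. Counts were tested with edgeR 4.0.16 (quasi-likelihood test, R 4.3.3) in 1 fit of 4 group means over all 12 libraries, with TMM factors and the filter of edgeR, which left 16702 genes. Adjusted p-values (Benjamini-Hochberg) cover all of these, and the threshold was 0.05. CPM were computed from TMM-scaled library totals.

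The replicates are labelled as biological. Replicate numbers were not used to pair libraries. In counts simulated for bleomycin in wild-type cells over 16183 genes, the test recovered 44.9% of 98 changes of 0.5 and 91.6% of 95 changes of 1 (log2), with 9 false calls. The simulation gave every gene the same spread and no library that stood apart, unlike these data. DESeq2 1.42.0 and other settings, 21 in all, were tried as alternatives.

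The members, the gene lists, motifs and tests were chosen with earlier results of these data known. Named members were the up to 6 largest rises and falls past the threshold in each comparison, the 5 highest and 5 lowest levels, the S18 paralogs, MRPS36 and MRPL58, and, of each related list, up to 2 genes per direction with the smallest adjusted p, or all where a list had 5 or fewer. Sequences and start-site windows are from RefSeq (GRCh38.p14), and the YY1 and NRF1 motifs were shortened after a first search with longer forms, which fewer windows held. The gene coordinates are those of the deposited table, and for all 78 members equal GENCODE 29 on GRCh38.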

Additional observations from a re-analysis of the deposited data

How the results depend on the processing

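Across the 21 alternatives, no change that passed, in the fit reported or the alternative, reversed. Some that did not pass changed sign, such as MRPS18A in knockout cells. With only the 2 groups compared in the fit, 27 members rose and 14 fell in wild-type cells (background 56%), 7 rose and 6 fell in knockout cells (background 31.9%), and 1, MRPS24, was lower in knockout than in wild-type cells under bleomycin (background 1.94%). Leaving out each library in turn gave 6 to 26 rises and 6 to 15 falls in wild-type cells, 8 to 21 rises and 6 to 15 falls in knockout cells, and 0 to 1 member lower in knockout cells under bleomycin. The counts over all genes moved as well, with 17118 to 17269 genes tested. They were 3449 to 5133 rises and 2627 to 4610 falls in wild-type cells, and 3189 to 4405 rises and 2677 to 3914 falls in knockout cells. The other genotype counts and the interaction stayed at 0 members. Falls outnumbered rises in wild-type cells without wild-type control replicate 2 (6 and 8), control replicate 3 (6 and 9) or bleomycin replicate 3 (6 and 8), and in knockout cells without knockout control replicate 3 (12 and 15) or bleomycin replicate 2 (8 and 11). Replicate numbers were not shown to pair the libraries: of 18 same-numbered pairs, 1 correlated above 0.1 (range -0.128 to 0.109), and 1 of 12 libraries correlated best with its own number. With the replicate number as a block, 9 members rose and 8 fell in wild-type cells and 12 rose and 12 fell in knockout cells. Of all 16702 genes, 3810 rose and 3100 fell in that fit in wild-type cells, and 3621 and 3142 in knockout cells. DESeq2's Wald test gave 15 and 11 members, then 16 and 14, and over all 16702 genes 4073 and 3435, then 3831 and 3691. The cause of these differences was not tested. Limits: 3 libraries a group, 1 of which stands apart in the knockout controls, an unknown number of clones, and counting of unknown strand. On counts simulated with the same spread for every gene and no library standing apart, 44.9% of changes of 0.5 (log2) were called. The share at the spread of these data was not measured, and smaller changes may have been missed.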

Other observations

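Start sites of the mitochondrial ribosomal protein genes often lay close to another gene. A gene transcribed away from the member began within 1000 bases of 28 of the 78 (35.9%), against 15.4% of protein-coding genes tested. Among the 8 of these 28 members that passed under bleomycin in wild-type cells, the neighbour passed in the same direction in 3, in the other direction in 1 and did not pass in 4. Over all genes, 23.9% rose and 19.6% fell in these cells. MRPL49 and FAU (same direction) and MRPS27 and PTCD2 (other direction) overlap on opposite strands, and the strand setting of the counts is unknown. Across the 28 members the log2 changes of member and neighbour had a Pearson's r of 0.12 in wild-type and -0.01 in knockout cells, a description without a test. MRPL46 and MRPS11, each the other's neighbour, are both among the 28. MRPL46 and MRPS11 form such a pair of 2 members, with starts 34 bases apart: their changes were 0.24 and 0.20 in wild-type cells and -0.36 and 0.49 in knockout cells, none past the threshold. Without knockout control replicate 2 the knockout changes were -0.17 and 0.14.

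Pseudogenes of the members were nearly silent. The table listed 75 pseudogenes of 34 members, of which 25 had a count in any library and 3 had 30 or more in all libraries together. MRPL45P2 had 1162 counts, which was 14.3% of the counts of MRPL45, and MRPS31P4 and MRPS31P5 had 229 and 170. Reads shared between a gene and its copies were not measured.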
